A study of Mus musculus with 6 samples.

Results

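The genes described here are 10 that act at the passage from G1 into S phase: the D-type cyclins Ccnd1, Ccnd2 and Ccnd3, the E-type cyclins Ccne1 and Ccne2, the kinases Cdk4 and Cdk6, the inhibitor Cdkn1b (p27), the pocket protein gene Rb1 and the transcription factor gene E2f1. They were found by name, by matching their mouse symbols to the Entrez IDs of a table of RNA-seq read counts. The rule uses no measured value, but the set was drawn up with earlier results of these data known. All 10 were among the 24594 gene rows of that table, and all 10 were among the 12909 genes with enough counts to be tested. The table came from epithelial organoids of the adult mouse proximal small intestine, which are small hollow structures grown from crypts in a gel. It compared 3 control libraries with 3 libraries from organoids given doxycycline.

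Every library had the same genotype, TetON-hYAP/H2B-mCherry, in which doxycycline switches on a human YAP transgene and a red fluorescent histone. The design text gives the transgene as the S127A mutant, a constitutively active form of YAP, the coactivator that the Hippo pathway holds back. The treated organoids had 1 µg/ml doxycycline for 48 h from passaging, and the controls had none. All organoids grew in Matrigel with EGF, Noggin and R-spondin1, so the growth factor and Wnt-enhancing signals of the medium were shared by both groups. Doxycycline was never given to organoids without the transgene, so the drug and active YAP cannot be told apart. Per the labels, adult crypts came from 1 individual per sample. The labels do not say whether the libraries of this strain came from separate animals, so the p-values measure the spread between these libraries, which may be technical. The human transgene was not analysed here, and no mouse row was used to check the labels.

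In G1, D-type cyclins bind CDK4 and CDK6, and the active kinases phosphorylate RB1 and its relatives. Phosphorylated RB1 lets go of the E2F factors, which then drive the genes of DNA replication together with E2f1, Ccne1 and Ccne2 themselves. Cyclin E with CDK2 adds further phosphate to RB1, and the INK4 and CIP/KIP inhibitors, p27 among them, hold these kinases back. In the small intestine the dividing cells are the stem cells and their progeny in the crypt, and cells leave the cycle as they move out of it. The comparison below asks how the transcripts of this switch differed after induction.

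The libraries held between 8533452 and 16803062 counts. Control replicate 3 was unlike the other controls: log2 CPM (the usual count unit scaled by library size) correlated at 0.916 and 0.919 with theirs, against 0.991 between control replicates 1 and 2 and 0.986 to 0.990 among the doxycycline libraries. Values without it are given below beside the genes and lists whose calls it changed. The size of a called fold change can lean on it too, as for Ccne1, and this is not given for every gene. The 6 epithelial markers summed to 2705 to 3266 CPM in the controls and 9191 to 9823 CPM with doxycycline. By the test given below, 4 of the 6 were called higher, and all 6 without control replicate 3. Raw counts over a group, not scaled to library size, went from 30664 to 163633 for Krt8 and from 11053 to 67941 for Krt18. Epcam had 21604 and 18417. The 7 mesenchymal markers summed to at most 0.607 CPM in any library, with Col1a1, Dcn and Lum at 0 counts in all. The 6 immune markers summed to 4.16 to 6.90 and 4.45 to 7.12 CPM, and the 5 endothelial markers to 0.877 to 1.41 and 1.42 to 2.40 CPM, with Kdr at 0. Markers of crypt cell types moved with the treatment. The 5 stem cell markers summed to 3886 to 5332 CPM in the controls and 44.0 to 50.3 CPM with doxycycline, the 5 Paneth markers to 2294 to 4679 and 34.1 to 39.1 CPM, and the 5 goblet markers to 45.9 to 88.7 and 1.52 to 2.59 CPM. The 5 enteroendocrine markers summed to 299.4 to 551.1 and 180.3 to 212.3 CPM, and the 6 enterocyte markers to 1192 to 1770 and 9907 to 10576 CPM. The part of these shifts in the results below was not tested. In bulk RNA, fewer cells of a type and less RNA per cell cannot be told apart.

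With doxycycline, 5 of the 10 genes changed, and they went in both directions. Ccnd1 and Rb1 rose, and Ccne1, Ccne2 and E2f1 fell. A gene was called when its adjusted p was under 0.05 in edgeR's quasi-likelihood test over all 12909 genes. By that rule 45.3% of all genes were called, 21.7% as higher and 23.6% as lower, so the share of the 10 that was called is close to that of the table. The groups did not overlap for 7 of the 10 genes, beside 61.3% of all genes tested. They did so upward for Ccnd1, Ccnd2 and Rb1, beside 30.0% of all genes, and downward for Ccne1, Ccne2, Cdk4 and E2f1, beside 31.3% of all genes. The median log2 fold change of the 10 was -0.04, and that of all genes tested was -0.08. The 2 genes that rose and the 3 that fell were called with each single library left out and under each other setting tried.

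**Figure D1:**
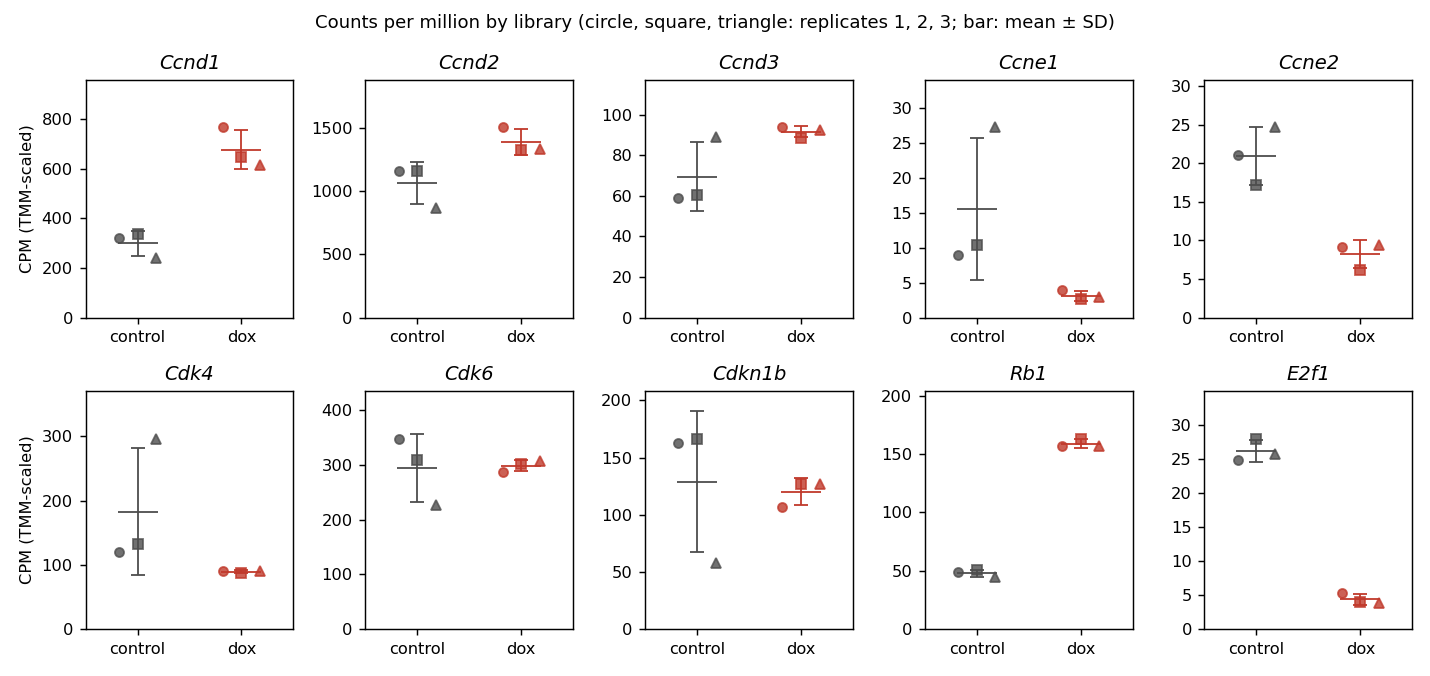
CPM (vertical axis, TMM-scaled, linear from 0) of the 10 genes in the 3 control and 3 doxycycline libraries, with the replicate number shown by the marker and the mean ± SD by the bars. Ccnd1 and Rb1 sit higher, and Ccne1, Ccne2 and E2f1 lower, in all 3 doxycycline libraries, and control replicate 3 (triangle) lies away from the other controls for Ccne1, Cdk4 and Cdkn1b.

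The D-type cyclins link growth signals to the cell cycle, since their transcription follows mitogens and Wnt and their proteins turn over quickly. The gene Ccnd1 lies on chromosome 7, at 144929931 to 144939831 of GRCm38.p6, the build of all positions here. Its control libraries read 321.2, 335.3 and 241.0 CPM and its doxycycline libraries 766.0, 645.7 and 616.2 CPM. Every doxycycline library was above every control library. The mean rose from 299.2 ± 50.9 to 676.0 ± 79.3 CPM, a log2 fold change of 1.18 (SE 0.192, edgeR adjusted p = 0.00290), or 2.26-fold higher. Errors after ± are SDs over the 3 libraries of a group, here and below. With total counts in place of TMM as the scaling it was 0.74 (edgeR adjusted p = 0.0174).

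Ccnd2 (chromosome 6, 127125162 to 127152188) encodes the D-type cyclin with the most transcript per length here. It had 1162, 1157 and 867.0 CPM in the controls and 1503, 1324 and 1334 CPM with doxycycline. The groups did not overlap, but the difference did not pass the test (log2 fold change 0.39, SE 0.179, edgeR adjusted p = 0.119). Ccnd3 (chromosome 17, 47505051 to 47599689) had 59.1, 60.4 and 89.1 CPM in the controls and 93.8, 88.6 and 92.6 CPM with doxycycline. Here control replicate 3 lay within the range of the treated libraries, and the difference did not pass either (log2 fold change 0.40, SE 0.199, edgeR adjusted p = 0.141). With control replicate 3 left out, edgeR called Ccnd2 higher (0.27, adjusted p = 0.00204) and Ccnd3 higher (0.63, adjusted p = 2.03e-06). Under total counts both log2 fold changes were just below 0, at -0.06 and -0.04, so no direction is stated for them. Ccnd3 has an annotated start 88416 bases inside the gene, and RefSeq's 250 bases before it (chr17:47593217-47593466, plus strand, GRCm38.p6) are shown because they hold CATTCC. That is GGAATG, the letters that TEAD factors, the DNA-binding partners of YAP, can bind, read on the other strand. The capitals mark it together with CCAAT and the GC box letters CCGCCC.

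Ccnd3: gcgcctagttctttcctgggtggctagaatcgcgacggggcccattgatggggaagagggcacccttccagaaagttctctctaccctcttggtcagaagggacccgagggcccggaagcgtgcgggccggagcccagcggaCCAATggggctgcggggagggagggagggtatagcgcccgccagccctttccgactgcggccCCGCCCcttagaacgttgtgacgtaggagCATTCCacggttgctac

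The E-type cyclins activate CDK2 at the G1/S boundary and are transcribed under E2F. Ccne1 (chromosome 7, 38097984 to 38107490) had 9.01, 10.3 and 27.2 CPM in the controls and 3.94, 2.59 and 2.90 CPM with doxycycline. All 3 treated libraries were below the lowest control, and control replicate 3 was 2.81 times the mean of the other controls. The mean fell from 15.5 ± 10.1 to 3.14 ± 0.710 CPM, a log2 fold change of -2.29 (SE 0.489, edgeR adjusted p = 0.00880), which is 4.91-fold lower. Leaving out control replicate 3 gave -1.61 (edgeR adjusted p = 6.73e-06). The counts behind these values were low, at 134 to 270 in a control library and 28 to 41 in a doxycycline library. Of the 5 genes that changed, only Ccne1 has a RefSeq promoter window at the start of the gene itself, and its 250 bases before that start are shown for this reason (chr7:38107491-38107740, minus strand, GRCm38.p6). The capitals mark the GC box letters GGGCGG on either strand.

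Ccne1: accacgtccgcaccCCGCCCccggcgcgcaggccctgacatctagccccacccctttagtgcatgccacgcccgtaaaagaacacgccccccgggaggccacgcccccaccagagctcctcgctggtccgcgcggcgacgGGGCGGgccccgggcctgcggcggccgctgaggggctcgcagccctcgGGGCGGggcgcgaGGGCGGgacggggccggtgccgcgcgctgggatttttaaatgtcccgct

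Ccne2 (chromosome 4, 11190433 to 11204779), the second E-type cyclin, had 21.1, 17.2 and 24.7 CPM in the controls and 9.20, 6.20 and 9.40 CPM with doxycycline. The groups were well apart, and its mean fell from 20.98 ± 3.75 to 8.27 ± 1.79 CPM. This is a log2 fold change of -1.34 (SE 0.248, edgeR adjusted p = 0.00491), or 2.53-fold lower.

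CDK4 and CDK6 are the catalytic partners of the D-type cyclins. Cdk4 (chromosome 10, 127063535 to 127067288) had 120.0, 132.2 and 296.6 CPM in the controls and 89.7, 87.3 and 90.8 CPM with doxycycline. The treated libraries lay close together and below all controls, while control replicate 3 was 2.35 times the mean of the other controls. The log2 fold change was -1.03 (SE 0.355) with an edgeR adjusted p of 0.0501, just outside the threshold. Without control replicate 3 it was -0.48 and Cdk4 was called lower (edgeR adjusted p = 2.82e-05). It was also called lower without control replicate 1 or 2 (edgeR adjusted p = 0.0289 and 0.0436), but without 1 of the doxycycline libraries the edgeR adjusted p was 0.135 to 0.146. DESeq2 called it lower (adjusted p = 0.0182), as did edgeR with total counts (adjusted p = 0.0121). Plain limma-voom (adjusted p = 0.0675) and edgeR with the replicate number as a block (adjusted p = 0.0758) did not. Of the 9 other settings with all 6 libraries and the threshold of 0.05, 5 called it.

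Cdk6 (chromosome 5, 3341004 to 3531008) had 347.9, 309.3 and 225.8 CPM in the controls and 287.0, 301.3 and 306.6 CPM with doxycycline. The treated libraries fell within the control range, with a log2 fold change of 0.02 (SE 0.195, edgeR adjusted p = 0.946). It was -0.13 without control replicate 3 and was not called there (edgeR adjusted p = 0.142).

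Cdkn1b (chromosome 6, 134920401 to 134925525) encodes p27, which binds and blocks cyclin E with CDK2 and also helps D-type cyclins assemble with their kinases. It had 163.1, 166.6 and 57.4 CPM in the controls and 107.0, 126.9 and 126.9 CPM with doxycycline. Control replicate 3 was 0.348 times the mean of the other controls, so the control libraries lay on both sides of the treated ones. The fitted log2 difference was small beside its error, at -0.10 (SE 0.386, edgeR adjusted p = 0.849). Without control replicate 3 it was -0.44, and Cdkn1b was called lower (edgeR adjusted p = 1.41e-04). The protein is controlled largely by its degradation, which these counts do not measure.

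Rb1 (chromosome 14, 73192858 to 73325951) encodes the retinoblastoma protein, the main brake on the E2F factors. It had 48.5, 50.3 and 44.2 CPM in the controls and 156.9, 163.4 and 157.1 CPM with doxycycline. The libraries of each group lay close together with a wide gap between the groups. The mean rose from 47.7 ± 3.16 to 159.1 ± 3.71 CPM, a log2 fold change of 1.74 (SE 0.145, edgeR adjusted p = 2.05e-04), or 3.34-fold, and was 1.30 with total counts as the scaling.

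E2f1 (chromosome 2, 154559400 to 154569892) encodes the founding activator E2F, which RB1 binds. It had 24.9, 27.9 and 25.7 CPM in the controls and 5.26, 3.98 and 3.75 CPM with doxycycline, so each treated library was far below each control. The mean fell from 26.2 ± 1.60 to 4.33 ± 0.815 CPM, a log2 fold change of -2.60 (SE 0.213, edgeR adjusted p = 1.91e-04), or 6.05-fold lower. Its count was 43 to 53 in a doxycycline library and 255 to 425 in a control library. Of the 10 genes, E2f1 had the largest fitted fall and Rb1 the largest fitted rise, and both had nearly the same fold change without control replicate 3 (-2.61 and 1.70).

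**Figure D2:**
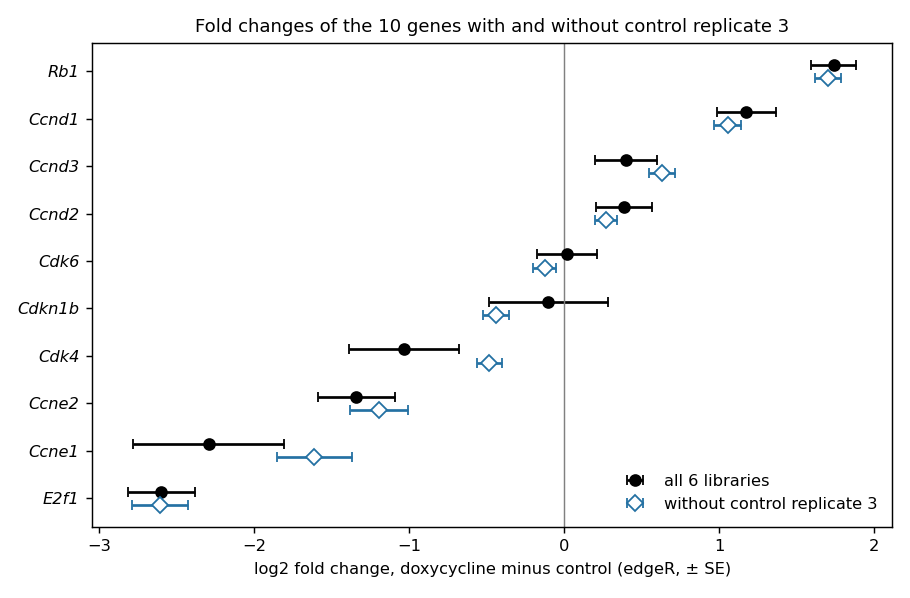
Log2 fold change of each gene, doxycycline minus control (horizontal axis), from edgeR with all 6 libraries (filled circles) and without control replicate 3 (open diamonds), with bars of ± 1 SE. The values of Rb1 (1.74 and 1.70) and E2f1 (-2.60 and -2.61) lie at the ends and hardly differ between the fits, while Ccne1 moves from -2.29 to -1.61 and Cdk4 from -1.03 to -0.48.

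In the fit without control replicate 3, 9 of the 10 genes were called, 4 higher and 5 lower, all but Cdk6. There 69.9% of the 13278 genes tested were called, 34.9% higher and 35.1% lower. The median log2 fold change of the 10 was then -0.28. The spans of 8 of the 10 genes overlap another annotated gene in RefSeq, those of Ccne1 and Cdkn1b being the exceptions. Ccnd1 overlaps LTO1, Cdk4 overlaps Tspan31, Rb1 overlaps Lpar6, Ccnd3 overlaps Bysl, and Ccne2 overlaps Ints8, and all of these had counts of their own. Ccnd3 also has an annotated pseudogene, Ccnd3-ps. The sources used here do not say whether the counting used strand, so reads in the shared stretches cannot be assigned with certainty.

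To compare levels between genes, the counts were divided by exon length, giving RPKM, a level per kilobase of exon, on TMM-scaled libraries. The length takes together the exons of a gene's transcripts in GENCODE M21. The annotation behind the counts is not given, so these lengths may differ from what was counted. That limit holds for each RPKM, order and family share here. In the controls Ccnd2 had the highest level, at 158.2 ± 25.2 RPKM, followed by Cdk4 (89.1 ± 48.1) and Ccnd1 (80.0 ± 13.6). Ccnd3 (28.4 ± 6.93), Cdkn1b (28.3 ± 13.6) and Cdk6 (25.5 ± 5.42) formed a middle group whose libraries overlapped. Rb1 (10.2 ± 0.678), E2f1 (8.29 ± 0.507), Ccne1 (7.75 ± 5.07) and Ccne2 (6.56 ± 1.17) were lowest. Between neighbours in that order, the libraries did not overlap for Ccnd1 and Ccnd3, Cdk6 and Rb1, and Rb1 and E2f1. All other neighbours overlapped. Several places in this order rest on control replicate 3. In control replicates 1 and 2, Ccnd1 (85.9 and 89.7 RPKM) was above Cdk4 (58.4 and 64.4), and Ccne2 (6.60 and 5.36) was above Ccne1 (4.50 and 5.16). In the middle group, Cdkn1b (35.8 and 36.6 RPKM) was above Cdk6 (30.2 and 26.8), which was above Ccnd3 (24.1 and 24.7).

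With doxycycline Ccnd2 was at 206.7 ± 14.97 RPKM and Ccnd1 next at 180.7 ± 21.2, and these overlapped. Cdk4 (43.5 ± 0.887), Ccnd3 (37.5 ± 1.11) and Rb1 (34.2 ± 0.797) followed, with no overlap between neighbours, so Rb1 stood above Cdkn1b (26.4 ± 2.52) and Cdk6 (25.9 ± 0.881), which it lay below in the controls. Ccne2 (2.58 ± 0.560), Ccne1 (1.57 ± 0.355) and E2f1 (1.37 ± 0.258) were lowest and overlapped from one to the next. These are transcript levels of different genes, and the order of the proteins was not measured.

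**Figure D3:**
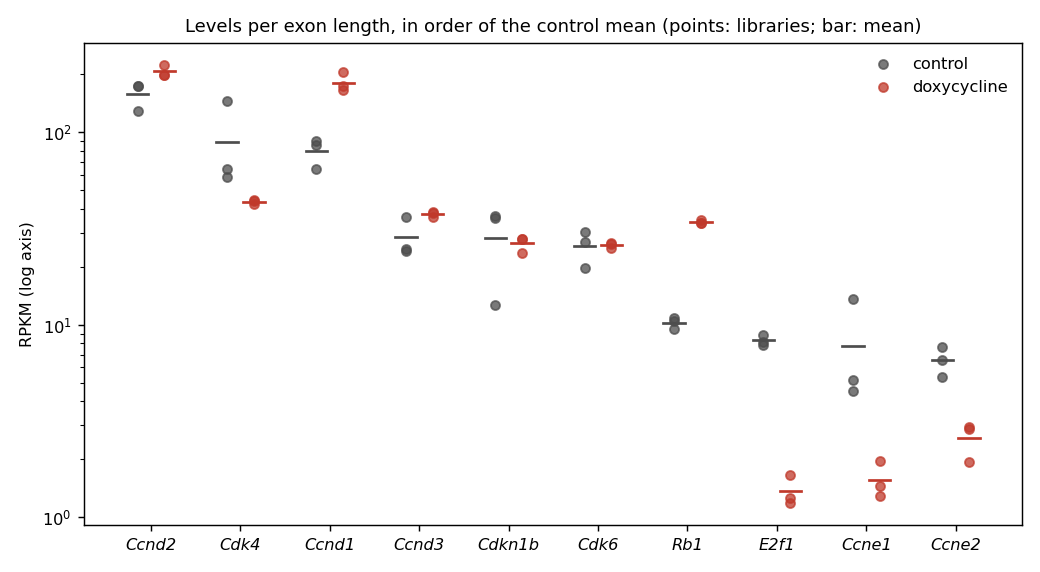
RPKM of the 10 genes (vertical axis, log scale) in each control and doxycycline library, ordered by the control mean, with bars at the group means. Rb1 moves from 10.2 to 34.2 RPKM and E2f1 from 8.29 to 1.37 RPKM, so the 2 genes are neighbours in the controls and far apart with doxycycline.

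Within a library, the ratio of 2 genes does not depend on the library scaling. The E2f1 to Rb1 ratio, per length, was 0.757 to 0.858 in the controls and 0.0355 to 0.04995 with doxycycline. In log2 it went from -0.30 ± 0.091 to -4.64 ± 0.275, a difference of -4.34, and -4.30 without control replicate 3. The ratio of Ccnd1 to Ccnd2 was 0.496 to 0.520 in the controls and 0.829 to 0.914 with doxycycline, a log2 difference of 0.79. Both ratios were far apart in all libraries and changed little without control replicate 3.

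The other 4 ratios leaned more on that library. The log2 difference of Ccnd1 to Ccnd3 was 0.76, and 0.42 without control replicate 3, and that of Ccnd1 to Cdkn1b was 1.14 and 1.495. That of Cdk4 to Cdk6 was -0.95 and -0.36. The ratio of Ccne1 to Ccne2 overlapped between the groups (log2 difference -0.77, and -0.40 without control replicate 3), so the E-type cyclins could not be shown to differ from each other in their fall. An exact permutation test, 2-sided, gave p = 0.1 for each of the 5 ratios that did not overlap and p = 0.2 for Ccne1 to Ccne2, or 0.12 and 0.2 adjusted over the 6 ratios. With 3 libraries against 3 the smallest p possible is 0.1, so no ratio could pass.

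The make-up of the families shifted with the members. Of the summed RPKM of the D-type cyclins, Ccnd1 made up 30.3, 31.3 and 28.0% in the controls and 43.8, 42.5 and 41.0% with doxycycline, while Ccnd2 went from 61.1, 60.1 and 56.2% to 47.9, 48.6 and 49.5%. The summed D-type level was 283.1, 286.8 and 230.0 RPKM in the controls and 467.1, 406.2 and 401.4 RPKM with doxycycline, with no overlap under TMM or under total counts. The summed E-type level was 11.1, 10.5 and 21.3 RPKM in the controls and 4.85, 3.23 and 4.39 RPKM with doxycycline, also with no overlap under either scaling. The summed D-type and the summed E-type levels thus lay on opposite sides of their controls in every treated library. Under total counts the D-type sums were close, at most 333.5 RPKM in a control library and at least 338.3 RPKM with doxycycline. Of the single D-type genes, Ccnd3 overlapped between the groups. Cdk4 and Cdk6 together had 88.6, 91.3 and 164.1 RPKM and 68.6, 68.6 and 70.8 RPKM.

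The pocket proteins are RB1 and its relatives p107 (Rbl1) and p130 (Rbl2). Rb1 made up 37.8, 38.3 and 41.3% of their summed RPKM in the controls and 74.4, 77.4 and 74.7% with doxycycline, and Rbl1 34.98, 32.9 and 35.8% and then 9.33, 6.46 and 7.63%. Rbl2 made up 27.2, 28.8 and 22.9% in the controls and 16.2, 16.1 and 17.7% with doxycycline. Rb1 had the highest share in each control library and most of the sum in each doxycycline library. The sum itself was 27.5, 28.3 and 23.0 RPKM in the controls and 45.3, 45.3 and 45.2 RPKM with doxycycline, and did not overlap under TMM or total counts. Rbl1 fell from 44.0 ± 3.61 to 17.2 ± 3.16 CPM (log2 fold change -1.36, edgeR adjusted p = 0.00150). Rbl2, chosen with its values in view, had 34.3 ± 7.41 and 37.2 ± 1.85 CPM (edgeR adjusted p = 0.671).

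Among the activator E2Fs, E2f1 made up 15.1, 16.6 and 26.0% of the summed RPKM in the controls and 3.32, 2.45 and 2.39% with doxycycline. The share of E2f3 went from 30.4, 29.4 and 18.6% to 53.3, 55.1 and 54.6%. The sum of E2f1, E2f2 and E2f3 was 52.3, 53.3 and 31.3 RPKM in the controls and 50.2, 51.4 and 49.7 RPKM with doxycycline. The groups overlapped through control replicate 3 alone, and the treated libraries lay just below the other controls. E2f3, chosen with its values in view, had 85.3, 84.0 and 31.2 CPM in the controls and 143.5, 152.0 and 145.4 CPM with doxycycline. It rose (log2 fold change 1.13, edgeR adjusted p = 0.0409), a call lost with any 1 doxycycline library left out (0.101 to 0.112) and with total counts (0.146). With 1 library left out its log2 fold change was 0.81 to 1.36. E2f2 had 117.9 ± 30.9 and 102.6 ± 1.07 CPM and was not called (log2 fold change -0.20, edgeR adjusted p = 0.494). It was called lower without control replicate 3 (-0.39, edgeR adjusted p = 1.75e-04) and with total counts (-0.64, edgeR adjusted p = 0.0457).

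**Figure D4:**
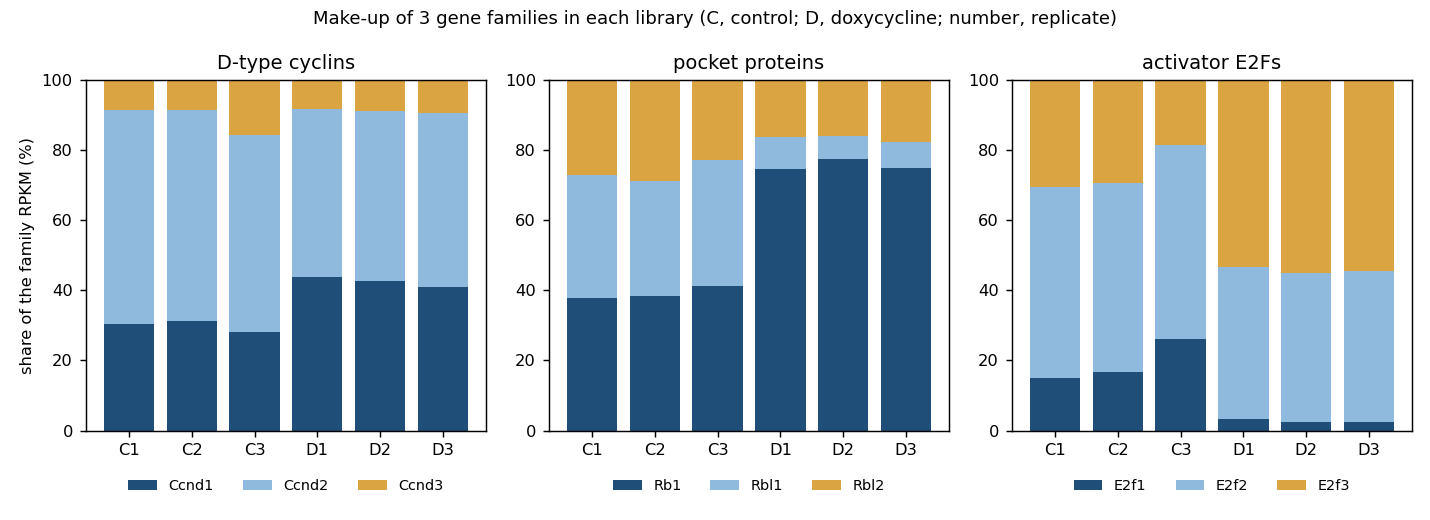
Share of the summed RPKM (vertical axis, %) of the D-type cyclins, pocket proteins and activator E2Fs taken by each gene, in control (C) and doxycycline (D) libraries 1 to 3. The share of Ccnd1 grows to 41.0 to 43.8%, that of Rb1 to 74.4 to 77.4%, and that of E2f1 shrinks to 2.39 to 3.32%.

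The genes around the 10 were taken in 9 lists. Over all genes tested, 21.7% were called higher and 23.6% lower, and 34.9% and 35.1% without control replicate 3. The counts of each list below stand beside these shares. Of the 6 other CDK inhibitors, 3 rose and 1 fell (median log2 fold change 1.29), and 4 rose and 1 fell without control replicate 3. Cdkn1a, which encodes the CIP/KIP inhibitor p21, rose (log2 fold change 2.52, edgeR adjusted p = 1.34e-04). Cdkn2b, the p15 inhibitor of CDK4 and CDK6, had 77.7, 76.5 and 77.5 CPM in the controls and 285.1, 290.2 and 300.4 CPM with doxycycline, and rose (1.92, adjusted p = 1.41e-04). Cdkn2c, the related p18 inhibitor, fell from 39.0 ± 9.45 to 6.87 ± 0.861 CPM (-2.51, adjusted p = 4.09e-04). The INK4 inhibitors thus moved in both directions, and their sum, with Cdkn2d, was higher with doxycycline under each of the 3 scalings.

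Cdkn2a rose from a low level of 0.281 ± 0.0411 to 1.85 ± 0.686 CPM (edgeR adjusted p = 0.00363). The count table does not separate its p16 and p19 transcripts. Cdkn1c (p57) had 14.1 ± 4.06 and 22.3 ± 0.587 CPM (edgeR adjusted p = 0.0598, and 7.16e-05 without control replicate 3), and Cdkn2d (p19Ink4d) 10.1 ± 1.38 and 9.38 ± 1.20 CPM (adjusted p = 0.718). Of 9 other settings with all 6 libraries, 3 called Cdkn1c higher, among them DESeq2 (adjusted p = 0.0242) and limma-voom (adjusted p = 0.0423). Beside the higher level of Cdkn1a, Cdkn1b made up 28.9, 31.6 and 10.3% of the CIP/KIP RPKM in the controls and 4.82, 5.001 and 5.27% with doxycycline.

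Of the 11 other pocket, E2F and DP genes, 1 rose (E2f3) and 5 fell (median -0.81), and 8 fell without control replicate 3. E2f8 and E2f7, the atypical E2Fs that repress E2F targets, fell from 51.8 ± 1.79 to 11.7 ± 0.553 CPM (-2.14, edgeR adjusted p = 1.20e-04) and from 22.5 ± 4.89 to 7.52 ± 0.697 CPM (-1.58, adjusted p = 0.00172). Tfdp1, which encodes DP1, the DNA-binding partner of E2Fs, fell from 196.7 ± 8.94 to 85.8 ± 14.6 CPM (-1.20, adjusted p = 0.00181). Its relative Tfdp2 had 130.1 ± 45.0 and 74.1 ± 9.20 CPM (edgeR adjusted p = 0.0554, and 4.97e-09 without control replicate 3). Of 9 other settings with all 6 libraries, 3 called Tfdp2 lower, among them DESeq2 (adjusted p = 0.0278) and edgeR with total counts (adjusted p = 0.00958). E2f6, chosen with its values in view, fell from 58.1 ± 9.96 to 30.2 ± 1.91 CPM (adjusted p = 0.00529), and E2f4, likewise, had 68.5 ± 19.9 and 43.2 ± 4.36 CPM (-0.66, edgeR adjusted p = 0.0519). E2f4 was called lower without control replicate 3 (-0.39, edgeR adjusted p = 0.00272) or 1 (-0.79, adjusted p = 0.0485), with DESeq2 (adjusted p = 0.0345) and with total counts (adjusted p = 0.00748). Of the 9 other settings with all 6 libraries and the threshold of 0.05, 3 called it.

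Of the 7 genes of the kinases and activators that act after or on the G1 kinases, 3 fell and 0 rose (median -0.29), and 4 fell without control replicate 3. Cdk2, the partner of the E-type cyclins, fell from 73.6 ± 3.91 to 19.0 ± 1.80 CPM (-1.95, edgeR adjusted p = 1.80e-04). Ccna2, cyclin A, and Cdk1, the mitotic kinase, fell with log2 fold changes of -1.97 and -1.97 (adjusted p = 4.60e-04 and 0.0104). The Cdk1 controls read 16.3, 19.1 and 42.9 CPM, and with 1 library left out its log2 fold change was -2.22 to -1.42. Cdc25a, the phosphatase that activates CDK2, had 119.2 ± 23.0 and 122.3 ± 1.45 CPM (adjusted p = 0.888), and Ccnh, of the CDK-activating kinase, 11.03 ± 2.49 and 9.02 ± 0.9997 CPM (adjusted p = 0.359). Ccnh was called lower without control replicate 3 (-0.45, edgeR adjusted p = 0.0319) and with total counts (adjusted p = 0.0375). The transcripts of cyclin E and of its kinase were both lower, and that of the activating phosphatase did not pass the test.

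Of 9 genes that act on the stability or localisation of p27 and the G1 cyclins, 1 rose and 2 fell (median -0.03). Skp2, the F-box protein that marks p27 for degradation, fell from 41.5 ± 10.1 to 13.9 ± 1.06 CPM (-1.58, edgeR adjusted p = 0.00174). Its cofactor Cks1b fell from 45.4 ± 31.4 to 10.2 ± 1.92 CPM (-2.15, adjusted p = 0.0110), but was not called without doxycycline replicate 3 (-2.004, adjusted p = 0.0527). Its controls read 24.04, 30.6 and 81.4 CPM, and without control replicate 3, the highest, the log2 fold change was -1.42 (edgeR adjusted p = 4.08e-07). Both changes were in the genes of the same ubiquitin ligase that acts on p27. Uhmk1, a kinase that phosphorylates p27, rose (1.35, adjusted p = 0.0283), a call lost with any 1 doxycycline library left out (0.0595 to 0.0879) and with total counts (0.0835). The Uhmk1 controls read 288.5, 269.6 and 99.95 CPM, and with 1 library left out its log2 fold change was 1.02 to 1.60. Skp1, the adaptor of that ligase, had 160.6 ± 80.8 and 184.6 ± 8.49 CPM (adjusted p = 0.650, and 1.50e-07 without control replicate 3, where it was called higher at 0.71), and Ambra1, which acts on D-type cyclin turnover, 49.6 ± 5.02 and 54.2 ± 5.32 CPM (adjusted p = 0.547). Without control replicate 3, 4 of the 9 rose and 2 fell, beside 34.9% and 35.1% of all genes.

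Of the 7 MuvB genes and partners, 4 fell and 0 rose (median -0.83). MuvB is the core that joins the p130 pocket protein and E2F4 to repress cell cycle genes and B-MYB and FOXM1 to activate them. The mitotic factor gene Foxm1 fell from 96.0 ± 17.7 to 26.7 ± 2.71 CPM (-1.85, edgeR adjusted p = 5.18e-04), and the core genes Lin9 (-1.70, adjusted p = 0.00280) and Rbbp4 (-1.32, adjusted p = 0.00932) also fell. The Rbbp4 controls read 72.5, 75.2 and 142.2 CPM, and with 1 library left out its log2 fold change was -1.50 to -0.93. Mybl2, B-MYB, fell (-0.83, adjusted p = 0.00832), with a log2 fold change of -0.74 just outside the threshold without doxycycline replicate 3 (edgeR adjusted p = 0.0528). Lin54 and Lin52 had edgeR adjusted p of 0.848 and 0.724.

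The known targets of E2F in DNA replication and repair were mostly lower. Of 33 tested, 29 fell and 0 rose (median -2.40), and without control replicate 3 it was 33 of 34, with 0 higher. Cdca7, a chromatin factor gene, fell from 161.2 ± 30.4 to 8.04 ± 1.37 CPM (-4.33, edgeR adjusted p = 6.26e-05). The uracil glycosylase gene Ung (-3.15, adjusted p = 1.44e-04), the polymerase alpha gene Pola1 (-3.03, adjusted p = 2.27e-04) and the flap nuclease gene Fen1 (-2.15, adjusted p = 2.50e-04) also fell. Of those not called, Pcna, the sliding clamp, had 90.8, 94.9 and 113.7 CPM in the controls and 109.5, 91.8 and 103.0 CPM with doxycycline, so the groups overlapped (adjusted p = 0.921). Gins2, of the replicative helicase, had 92.6 ± 1.68 and 78.9 ± 1.23 CPM (adjusted p = 0.199, and 0.0318 without control replicate 3). The mismatch repair gene Msh6, chosen with its value in view, was also not called (-1.90, edgeR adjusted p = 0.101), but was without control replicate 3 (-2.42, adjusted p = 2.10e-14). Gins2 and Msh6 were called lower with total counts (edgeR adjusted p = 0.00585 and 0.0488), and Msh6 with DESeq2 (adjusted p = 0.0265).

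The G2/M genes, set beside the G1/S genes, were also mostly lower, with 17 of 20 called lower and 0 higher (median -2.27), and 20 of 20 lower without control replicate 3. Kif11, a spindle motor gene, fell from 101.5 ± 2.06 to 18.6 ± 0.867 CPM (-2.45, edgeR adjusted p = 7.43e-05). Plk1 (-2.47, adjusted p = 1.00e-04), Nusap1 (-2.53, adjusted p = 2.73e-04) and Cenpe (16.6 ± 0.921 to 4.15 ± 0.346 CPM, adjusted p = 3.74e-04), all of the mitotic spindle, fell too. Mki67 and Cdc20 did not pass the test with all libraries (log2 fold changes -1.47 and -0.61, edgeR adjusted p = 0.0727 and 0.222) and did without control replicate 3 (-1.91 and -0.94, adjusted p = 7.40e-10 and 9.02e-09). The called genes of both lists went the way of Ccne1, Ccne2 and E2f1, opposite to Ccnd1 and Rb1.

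Of 13 other cyclin genes tested, 4 rose and 3 fell (median 0.04), beside 21.7% of all genes higher and 23.6% lower. Without control replicate 3 it was 5 and 5, beside 34.9% and 35.1% of all genes. Ccng2, an atypical cyclin linked to cell cycle exit, rose from 28.5 ± 6.29 to 227.3 ± 12.4 CPM (2.99, edgeR adjusted p = 1.38e-04), Ccni rose (1.05, adjusted p = 0.00230), Ccnyl1 rose (1.04, adjusted p = 0.00326), and Ccng1, chosen with its values in view, rose (1.35, adjusted p = 0.00420). Ccnf, an F-box cyclin of G2, fell (-2.05, adjusted p = 0.00202). Ccnj (-1.35, edgeR adjusted p = 0.0161) and Ccnc (-0.49, adjusted p = 0.0386), both chosen with their values in view, also fell. The call of Ccnj was lost without any 1 doxycycline library (0.0599 to 0.0646), and that of Ccnc without any 1 library other than control replicate 3 (0.0857 to 0.149). Ccnl2 (147.8 ± 36.1 and 156.7 ± 17.5 CPM) and Ccny (149.1 ± 34.2 and 153.0 ± 8.69 CPM) did not pass the test.

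Of 13 other CDK genes, 3 rose and 0 fell (median 0.12), beside 21.7% of all genes higher. Without control replicate 3, 6 rose and 2 fell, and with total counts 3 rose and 3 fell (median -0.32). Cdk18 rose from 64.5 ± 11.04 to 217.6 ± 12.3 CPM (1.76, edgeR adjusted p = 4.34e-04) and Cdk11b, a kinase tied to transcription and splicing, from 7.88 ± 0.491 to 19.6 ± 4.43 CPM (1.32, adjusted p = 0.00373). Cdk14 rose from a low level (2.11, adjusted p = 0.0182), a call lost without doxycycline replicate 2 (0.0671) or 3 (0.0761). Cdk13 and Cdk16 were not called (edgeR adjusted p = 0.415 and 0.176). Without control replicate 3 Cdk16 was called higher (0.45, edgeR adjusted p = 6.19e-05), but its log2 fold change was -0.13 with total counts.

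**Figure D5:**
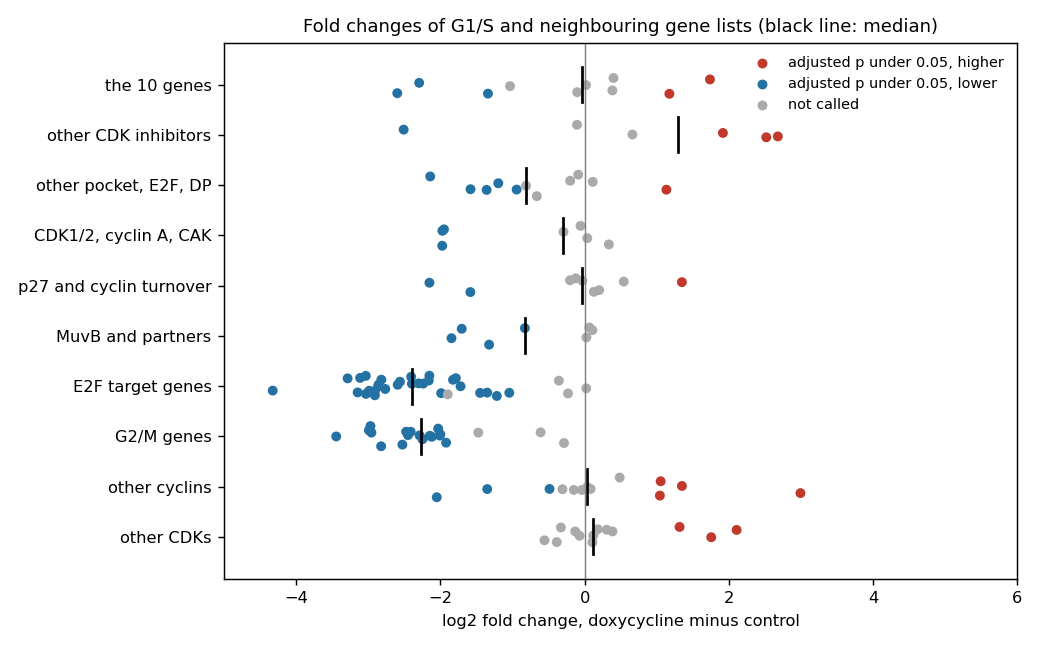
Log2 fold change, doxycycline minus control (horizontal axis), of the genes tested in the 10 G1/S genes and 9 companion lists, with 1 point per gene, colour for the edgeR call and a black line at each list's median. The E2F targets (median -2.40) and G2/M genes (median -2.27) lie almost all to the left, while the 10 genes (median -0.04) lie on both sides.

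The start sites of the genes were searched for short letters. RefSeq promoter windows of GRCm38.p6, from 250 bases before to 50 after a start, were given for 6 of the 10 genes and not for Ccnd1, Ccnd2, Ccne2 and Rb1. The windows of E2f1 and Cdk6 belong to starts 466 and 2889 bases inside the gene. The 6 genes had 7 windows, since Ccnd3 has a window at the gene's start and another at its internal start. Shares below are of windows, while the 6 are counted by gene. The letters of E2F sites (TTTGGCGC, TTTCCCGC, TTTCGCGC and TTTGCCGC, both strands) were in 2.26% of all 32851 windows and in none of those of the 6 genes.

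The GC box letters GGGCGG were in 35.7% of all windows and in those of 5 of the 6 genes, Cdk6 being the exception. The stretch of Ccne1 printed above is 76.0% G or C, against a median of 52.4% over all windows. The TEAD letters GGAATG were in 14.7% of all windows and in 1 of the 6 genes, Ccnd3. They are those in the stretch of Ccnd3 printed above, before the internal start, and the window at the start of the Ccnd3 gene held none.

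The TCF/LEF letters CTTTGAT and CTTTGAA, bound by the transcription factors at the end of the Wnt pathway, were in 8.65% of windows and in Cdk4 alone of the 6 genes. The AP-1 letters TGACTCA and TGAGTCA were in 5.2% of windows and in none of the 6 genes. The letters CCAAT were in 37.4% of windows and in Ccnd3, at the internal start only, and Cdkn1b. The CHR letters TTTGAA, found at G2/M genes, were in 17.9% and in none of the 6. The searches for GC box, CCAAT and CHR letters, and for the E2F letters cut to 7, were added after the data were seen. The E2F letters cut to 7 were in 9.57% of windows and in none of the 6 genes. A match describes the letters of a window and does not show binding.

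The same E2F letters were counted over the genes around the 10, in the 250 bases before the start. They were before 2.16% of 27025 genes with a window, 6.14% of 2442 genes that fell, 2.24% of 2185 that rose and 3.55% of 5640 tested genes that were not called. In the E2F target list they were before 8 of 27 genes, in the other pocket, E2F and DP genes before 4 of 9, in the list with Cdk2 and Cdk1 before 3 of 5, and in the G2/M list before 0 of 18. The stretches below show the letters, in capitals, in genes that fell (Rbl1, Cdk2, Mcm5 and Cdca7), in E2f3, which rose, and in Cdc25a, which did not pass the test. Mcm5 was chosen with its values in view. The positions are Rbl1, chr2:157204535-157204568, minus strand, Cdk2, chr10:128705168-128705207, minus strand, and Mcm5, chr8:75109340-75109379, plus strand. The others are Cdca7, chr2:72476132-72476171, plus strand, E2f3, chr13:29986064-29986090, minus strand, and Cdc25a, chr9:109875496-109875535, plus strand.

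Rbl1: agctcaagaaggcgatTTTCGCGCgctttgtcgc
Cdk2: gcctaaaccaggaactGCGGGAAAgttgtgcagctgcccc
Mcm5: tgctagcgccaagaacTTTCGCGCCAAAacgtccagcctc
Cdca7: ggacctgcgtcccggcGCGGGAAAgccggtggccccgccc
E2f3: atggtttgaaaagccgGCGGGAAAtct
Cdc25a: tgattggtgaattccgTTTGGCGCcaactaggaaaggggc

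In Mcm5 a pair of matches overlap, so the capitals run on. GCGGGAAA is TTTCCCGC read on the other strand. The letters were thus present before genes that fell, a gene that rose and a gene that was not called.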

How the data were processed

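The deposited table holds whole-number read counts per Entrez gene ID for 6 libraries, 3 control and 3 doxycycline. Per the labels' protocols, total RNA was column-purified, made into TruSeq RNA libraries and sequenced on a NextSeq, and per the submitters' processing notes the build was mm10. The aligner, counter, annotation and use of strand are not given in the sources used here. RefSeq (GRCm38.p6) gave symbols and positions for 24570 of 24594 IDs, and GENCODE M21 gave the exon lengths.

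The test used edgeR 4.0.16 in R 4.3.3, with filterByExpr by group, TMM scaling, the robust quasi-likelihood F-test, and Benjamini-Hochberg adjustment over 12909 genes at 0.05. TMM factors were 1.16 to 1.17 in the controls and 0.843 to 0.879 with doxycycline. Under TMM the median log2 fold change over all genes was -0.08, and under total counts -0.52, and directions here are those of the TMM scale. Ratios of 2 genes used counts per kilobase with a prior count of 0.5. The test was also run on simulated counts with few changed genes and no library apart from its group. It was thus not checked under the conditions of these data. DESeq2 1.42.0, limma 3.58.1 (voom, with and without library quality weights), 2 other scalings, TMM without the 20 highest genes, 2 other filters, a replicate block, a threshold of 0.01 and each library left out in turn were alternatives.

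The 10 genes and all lists were chosen with earlier results of these data known. Beside the 10, the rule took from each list up to 4 called genes, by smallest adjusted p, up to 2 uncalled genes, by highest mean CPM, and up to 2 markers of each cell type, which are given here as sums. Proteins were not analysed here, and some of the listed genes are not reported here by name.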

Additional observations from a re-analysis of the deposited data

How the results depend on the processing

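The 2 rises and 3 falls among the 10 genes were called under all 10 settings other than leaving out a library, and in all 6 fits with 1 library left out. With library quality weights in limma-voom, 9 of the 10 were called (4 higher, 5 lower), and with 1 library left out 5 to 9 (2 to 4 higher, 3 to 5 lower). Over the whole table the weights gave 9548 calls (4663 higher, 4885 lower), the threshold of 0.01 gave 3477 (1780 and 1697), total counts gave 1747 higher and 5131 lower beside 2800 and 3050 with TMM, and leaving out a library gave 3836 to 9286 (1945 to 4632 higher, 1888 to 4654 lower). Of the 121 companion genes, 12 rose and 64 fell. With the weights 20 rose and 78 fell, and with 1 library left out 9 to 20 rose and 57 to 79 fell. Of the 20 places in the 2 orders of level, 13 to 20 were kept with 1 library left out, and 13 without control replicate 3. Of the promoter searches, the planned letters were found in 2 of the 6 genes and the added ones in 5.

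Among the genes followed through the settings, the log2 fold changes that reversed in sign all belong to genes not called in the main fit. Ccnd2, Ccnd3, Skp1, Cdk16 and Cdkn1b were nonetheless called without control replicate 3. With total counts the reversed values were Ccnd2 -0.056, Ccnd3 -0.042, Cdk6 -0.42, Cdc25a -0.41, Skp1 -0.24, Ambra1 -0.32, Lin52 -0.33, Lin54 -0.38, Pcna -0.42, Ccnl2 -0.36, Ccny -0.41, Cdk13 -0.058, Cdk16 -0.13, Itgam -0.18 and Rbl2 -0.33. With quality weights they were Cdk6 -0.11, Cdc25a -0.11, Lin52 -9.08e-04, Lin54 -0.16, Ccnl2 -0.078, Ccny -0.11 and Rbl2 -0.033, and with plain limma-voom Cdkn1b was 0.048. With 1 library left out the ranges were Cdk6 -0.13 to 0.16, Cdkn1b -0.44 to 0.13, Cdkn2d -0.18 to 0.026, Cdc25a -0.099 to 0.14, Lin54 -0.15 to 0.21, Pcna -0.039 to 0.14, Ccnl2 -0.092 to 0.19, Ccny -0.13 to 0.14, Itgam -0.022 to 0.46 and Rbl2 -0.033 to 0.24. The cause was not tested.

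Deviations of same-numbered libraries from their group means correlated at -0.30, 0.12 and -0.19. With 3 libraries per group and control replicate 3 apart, these values cannot show whether the numbers pair the samples. With the replicate block 4509 genes were called (2261 higher, 2248 lower), with 5 of the 10 genes (2 higher, 3 lower) and 72 companion genes, and Cdkn1b was 0.033. With 3 libraries per group and 1 control apart from the others, small differences, such as those of Ccnd2, Ccnd3, Cdk4 and Cdkn1b, cannot be settled here. Ccne1, Ccne2 and E2f1 rest on low counts after doxycycline, and intervals from counting alone were not computed.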
